A study of Arabidopsis thaliana with 24 samples.

Results

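SIAMESE (SIM) and the SIAMESE-RELATED proteins SMR1 to SMR8 are small plant inhibitors of cyclin-dependent kinases. The 9 genes were taken by locus number, in all 8 genotypes of a seedling RNA-seq series. They are SIM (AT5G04470), SMR1 (AT3G10525), SMR2 (AT1G08180), SMR3 (AT5G02420), SMR4 (AT5G02220), SMR5 (AT1G07500), SMR6 (AT5G40460), SMR7 (AT3G27630) and SMR8 (AT1G10690). The set makes up 9 of the 33612 features in the count table, and all 9 were among the 21897 genes tested.

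In plants, cells that stop dividing often go on copying their DNA, a cycle without mitosis called endoreduplication. SIM-type proteins bind cyclin and kinase complexes and block entry into mitosis, and Arabidopsis leaf hairs (trichomes) of sim mutants are multicellular instead of single large polyploid cells. SMR1, also known as LGO, is needed for the giant cells of the sepal epidermis. SMR4, SMR5 and SMR7 are known as genes induced by DNA damage, and SOG1, the main plant regulator of the DNA damage response, binds the SMR5 and SMR7 promoters. E2F transcription factors bind the promoters of cell-cycle genes and take part in the DREAM complex, a repressor assembly named in the title of the series.

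Messenger RNA selected by poly(A) came from whole Arabidopsis thaliana seedlings, grown 9 days under constant white light. Each of the 8 genotypes gave 3 libraries (24 in all), which the labels call biological replicates. The wild type (WT) was Col-0. The single mutants were hid1, which lacks the noncoding RNA gene HID1, bte1 and btl1. The double mutants were bte1 hid1, bte1 btl1 and hid1 phil1, in which phil1 is described as a mutated proximal promoter of HIL1. The last genotype was the e2fa e2fb e2fc triple mutant, written e2f below. Every library came from whole seedlings, so every value mixes cell types. No treatment is named.

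Depth ran from 14309396 to 23912716 counted reads per library, with btl1 and bte1 btl1 at the low end (14309396 to 15424866). The FPKM table covers fewer features in the 9 libraries of btl1, bte1 btl1 and e2f than in the other 15, so the libraries form 2 sets. For btl1, bte1 btl1 and e2f against WT, library set and genotype cannot be told apart, and comparisons within the set of 9 are given first. HID1 had 0 reads in hid1 and in bte1 hid1. In hid1 phil1 it had 9 reads (0.421 CPM), all in replicate 2, and 0 in the other replicates, while WT was at 6.84 to 9.67 CPM. In e2f the loci of the 3 mutated genes were still counted (means of 31.3, 5.54 and 47.5 CPM for the reference symbols E2F3, E2F1 and ATE2F2, against 8.83, 6.85 and 11.6 in WT), so counts give no check of that genotype. In hid1 phil1, replicate 2 was unlike the other 2 replicates (chi-square per degree of freedom 19.7 and 20.1, against 4.64 between those). The 3 e2f replicates differed from one another by 15.2 to 33.0 on that measure. Every other pair of replicates of one genotype lay between 2.80 and 10.3.

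The promoters of SMR4, SMR6 and SMR7 are shown because these genes changed in e2f and hold an E2F motif or a SOG1 palindrome. Each stretch is the 250 bases before the annotated start in TAIR10.1, read 5′ to 3′ on the gene's strand from the RefSeq genome. Capitals mark the letters of an E2F motif (TTTCCCGC, TTTCGCGC, TTTGCCGC or TTTGGCGC, either strand) and the fixed letters of the SOG1 palindrome CTTNNNNNNNAAG. SMR4 is at chr5:442188-442437 on the minus strand, SMR6 at chr5:16201892-16202141 on the plus strand and SMR7 at chr3:10231568-10231817 on the minus strand.
SMR4: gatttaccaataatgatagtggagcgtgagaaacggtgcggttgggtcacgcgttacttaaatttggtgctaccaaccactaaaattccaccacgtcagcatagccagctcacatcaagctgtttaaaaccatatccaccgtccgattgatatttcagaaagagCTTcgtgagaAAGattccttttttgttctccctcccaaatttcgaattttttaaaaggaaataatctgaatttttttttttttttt
SMR6: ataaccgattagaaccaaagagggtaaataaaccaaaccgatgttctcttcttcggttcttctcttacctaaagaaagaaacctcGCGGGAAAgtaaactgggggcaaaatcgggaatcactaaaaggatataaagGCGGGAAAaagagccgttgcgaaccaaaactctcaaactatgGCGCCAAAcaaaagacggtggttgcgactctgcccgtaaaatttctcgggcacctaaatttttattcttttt
SMR7: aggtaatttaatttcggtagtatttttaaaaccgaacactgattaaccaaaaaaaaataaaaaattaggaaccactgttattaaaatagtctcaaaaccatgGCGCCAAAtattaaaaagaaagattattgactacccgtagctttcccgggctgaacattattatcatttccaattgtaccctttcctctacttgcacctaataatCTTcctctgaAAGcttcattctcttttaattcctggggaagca
For SMR5 the annotated start is the start codon, so only its 2 palindromes with 6 bases on either side are shown, at chr1:2305109-2305133 and chr1:2305045-2305069 on the minus strand.
SMR5 site 1: tagcaaCTTccagaacAAGctacgg
SMR5 site 2: aagaacCTTattaggaAAGtgcgag

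The search covered 250 bases before to 50 after the start of 27443 protein-coding genes. E2F motifs were rare, in 1.76% of those promoters and in 2 of the 9 members. SMR6 held 3 of them, beginning 165, 114 and 72 bases before the start, and SMR7 held 1 at 148 bases before it. The SOG1 palindrome was in 11.8% of promoters and in 4 of the 9 members, SMR4, SMR5, SMR6 and SMR7. SMR4 held 1, beginning 86 bases before the start. In SMR7 one palindrome began 43 bases before the start and another 28 bases after it, and that of SMR6 began 33 bases after it. The CHR element of DREAM targets (TTTGAA or TTCGAA) was in 48.7% of promoters and in SMR2, SMR4 and SMR8. The core of the mitotic MSA element (AACGG) was in 24.7% and in SMR2, SMR4 and SMR6. No letters of these 4 classes occurred in the windows of SIM, SMR1 and SMR3. TTTCGCGC and TTTGCCGC were found in no member. A match describes the letters, and binding was not measured.

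**Figure D1:**
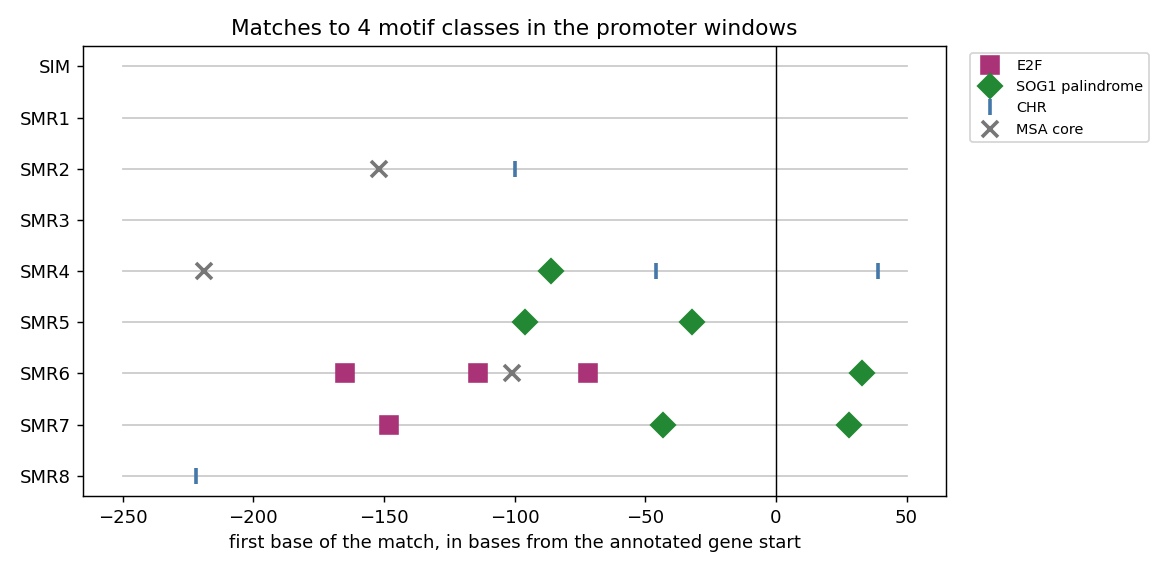
Positions of motif matches in the promoters of the 9 genes, one row per gene, with distance from the annotated start in bases on the x axis and one marker per match. SMR6 and SMR7 are the 2 genes with E2F matches, and SMR4 to SMR7 are the 4 with the SOG1 palindrome.

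All 9 genes have 1 annotated transcript with an unbroken coding part. The proteins range from 72 residues for SMR4 to 128 for SMR1. SIM, SMR1 and SMR5 each overlap a gene annotated on the opposite strand, and the strand used in counting is not given in the sources used here. SIM shares 338 of its 792 bases with AT5G04475, and SMR1 375 of its 826 with AT3G10527. Neither overlapping gene is in the count table. If counting ignored strand, their reads in the shared bases would be counted to SIM or SMR1, so SIM and SMR1 values are uncertain too. SMR5 lies wholly (266 bases) within the annotated span of AT1G07510, whose symbol in the reference is ftsh10. If counting ignored strand, reads of the pair in shared bases could not be told apart, so SMR5 values are uncertain to that extent. Only whole gene spans were compared, not exons. AT1G07510 stood at 41.0 CPM in btl1 and 46.1 CPM in e2f, a log2 difference of 0.17 (SE 0.06, adjusted p = 0.0271).

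The e2f mutant against btl1 compares libraries that carry the triple mutant label with another mutant of the same library set. That set rests on FPKM coverage, and depth differed within it. The e2f libraries had 21270487 to 21885875 counted reads, against 14309396 to 15424866 in btl1 and bte1 btl1. The part of depth in the differences was not tested. SMR4, SMR5, SMR6, SMR7 and SMR8 were higher in e2f and SIM and SMR1 were lower, while SMR2 and SMR3 did not pass the test. Adjusted p-values are from edgeR's quasi-likelihood test with Benjamini-Hochberg adjustment over all tested genes, with 0.05 as the threshold. The comparison called 51.2% of all genes (26.4% higher, 24.8% lower), so a count of 7 of 9 members is to be read against that share. The median log2 difference was 1.23 over the members and -0.01 over all genes.

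SMR7, a DNA damage inducible inhibitor, had the largest difference of the 9. It was at 13.9, 13.4 and 14.6 CPM (reads relative to the TMM-adjusted size of the library) in the 3 e2f libraries and at 0.320, 0.864 and 0.399 CPM in btl1. In bte1 btl1 it was at 0.793, 1.42 and 0.395 CPM, and in WT at 0.672, 0.675 and 1.18 CPM. All 3 e2f libraries lay above every other library of the series. The difference from btl1 was 26.3-fold, a log2 value of 4.72 (SE 0.32, adjusted p = 1.95e-11). Against bte1 btl1 the log2 difference was 4.01 (SE 0.30, adjusted p = 1.18e-10), and against WT 4.04 (SE 0.28, adjusted p = 2.47e-11). No other genotype had SMR7 called against WT.

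SMR4, the shortest of the proteins and linked in Arabidopsis to the slowing of divisions in the stomatal lineage, followed a graded pattern. It was at 6.86, 5.98 and 6.18 CPM in e2f, at 3.61, 3.96 and 3.56 CPM in bte1 btl1 and at 0.575, 0.731 and 0.665 CPM in btl1. These 3 genotypes did not overlap. How many of all genes separate between groups of 3 libraries was not computed, here or below, so separation only describes the values. The log2 difference of e2f from btl1 was 3.26 (SE 0.29, adjusted p = 2.56e-09), a 9.58-fold difference. From bte1 btl1 to e2f it was 0.77 (SE 0.24, adjusted p = 0.00858), a 1.71-fold difference.

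SMR5, the other inhibitor with a long record of induction by DNA damage, was at 2.42, 1.12 and 1.76 CPM in e2f. In btl1 it was at 0.383, 0.598 and 0.0665 CPM, the last being 1 read. The groups did not overlap, and the e2f libraries varied more among themselves than for SMR7. The log2 difference was 2.32 (SE 0.43, adjusted p = 9.80e-05). It was 2.92 without btl1 replicate 2, the highest btl1 library, whose removal enlarges the difference and leaves the library with 1 read in. Against bte1 btl1 the log2 difference was 1.66 (adjusted p = 0.00147).

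SMR6 was at 4.80, 4.95 and 4.15 CPM in e2f and at 1.85, 2.26 and 1.53 CPM in btl1. SMR8 was at 5.44, 4.69 and 5.10 CPM in e2f and at 2.11, 2.26 and 2.13 CPM in btl1. Neither gene's groups overlapped. SMR6 was 2.46-fold higher (95% interval of the log2 difference 0.76 to 1.83, adjusted p = 0.000341). SMR8 was 2.34-fold higher (interval 0.88 to 1.58, adjusted p = 4.45e-06).

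SIM, the trichome inhibitor that names the family, went the other way. It was at 10.7, 10.4 and 13.0 CPM in e2f and at 15.9, 15.9 and 16.5 CPM in btl1, without overlap. The log2 difference was -0.50 (SE 0.14, adjusted p = 0.00395). SMR1 was at 35.5, 29.1 and 28.1 CPM in e2f and at 37.6, 40.6 and 39.8 CPM in btl1, also without overlap. Its log2 difference was -0.35 (SE 0.10, adjusted p = 0.00485). SMR2 was at 6.27, 7.94 and 9.39 CPM in e2f against 6.90, 6.98 and 5.98 CPM in btl1, and the groups overlapped. For SMR2 the log2 difference was 0.25 with a 95% interval of -0.06 to 0.55. SMR3 was at 2.33, 1.21 and 2.48 CPM in e2f against 2.68, 1.80 and 2.73 CPM in btl1, a log2 difference of -0.26 with an interval of -0.89 to 0.37.

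**Figure D2:**
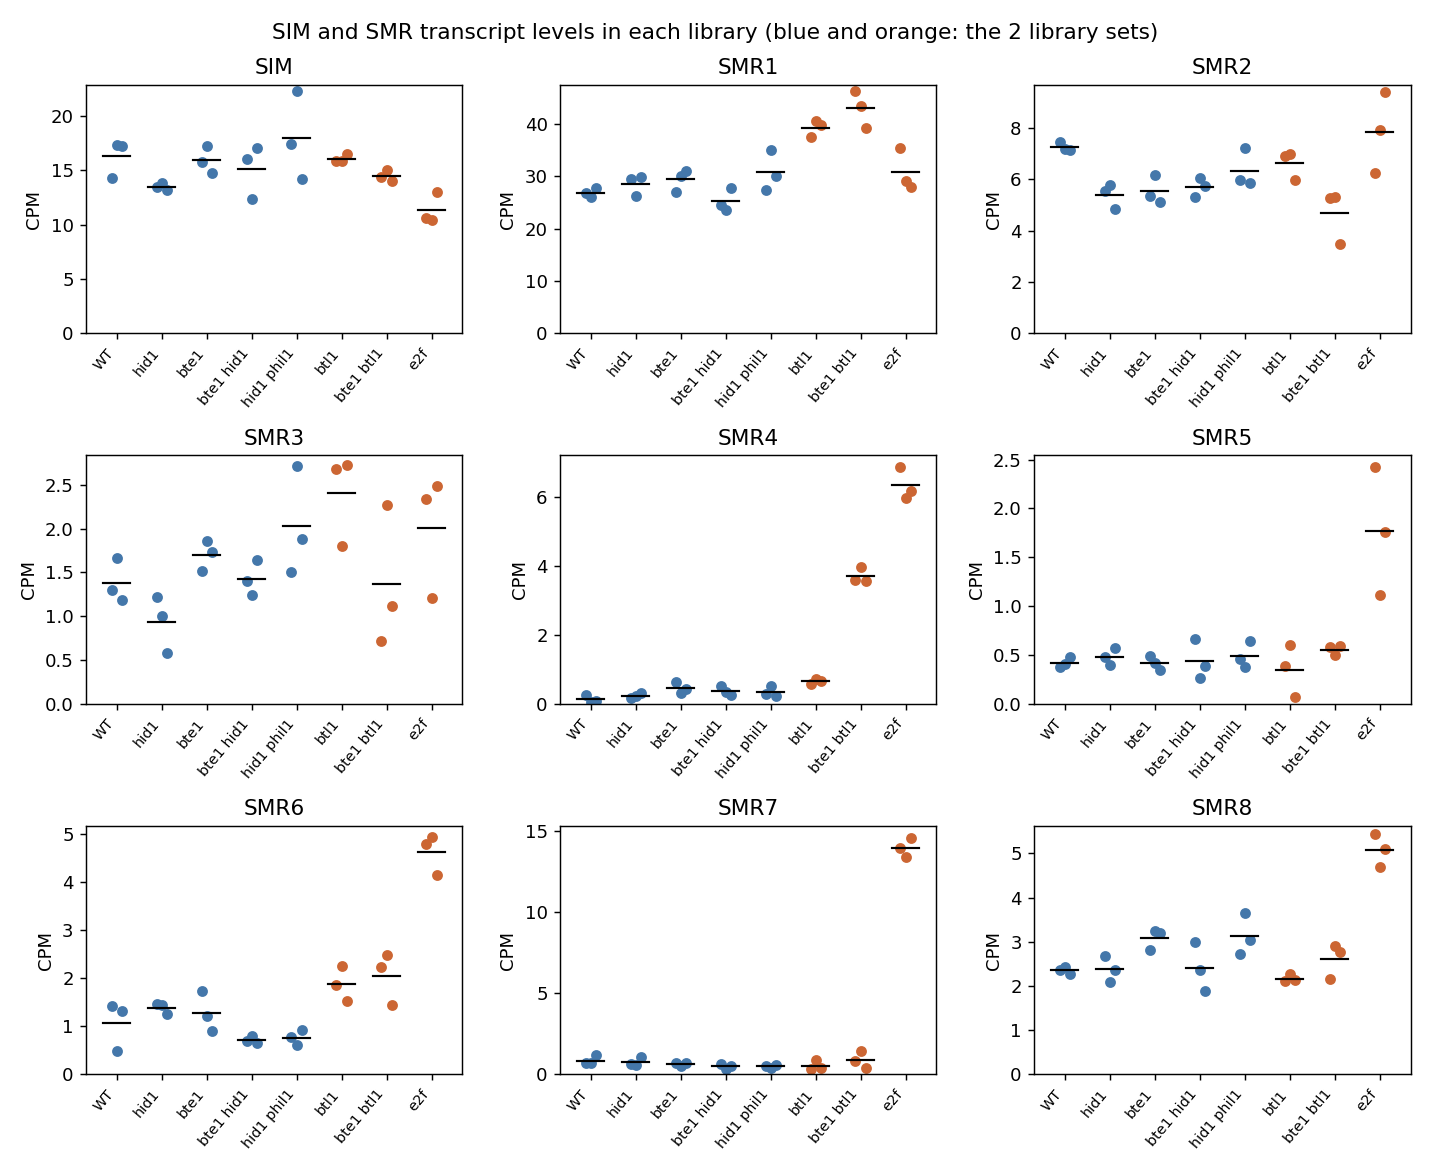
CPM of each of the 9 genes in every library, by genotype, on linear axes that start at 0, with points for libraries, a line for the mean and blue and orange for the 2 library sets. SMR7 in the 3 e2f libraries lies between 13.4 and 14.6 CPM, above every other library, and SMR4 rises from btl1 through bte1 btl1 to e2f.

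The comparisons of e2f with bte1 btl1 and with WT share the e2f libraries with the one above. Against bte1 btl1, 8 of 9 members were called, 6 higher and 2 lower, where 51.1% of all genes were called (26.1% higher, 25% lower). SMR2 was among the higher ones there, at 5.26, 5.31 and 3.49 CPM in bte1 btl1, with a log2 difference of 0.75 (SE 0.16, adjusted p = 0.000426). The SIM call in that comparison was close to the threshold, at log2 -0.35 with adjusted p = 0.0378. It had adjusted p-values of 0.0569 to 0.139 without any one of 5 libraries (the 3 of bte1 btl1 and replicates 1 and 2 of e2f), 0.0518 with DESeq2, and 0.0507 with the 2 genotypes alone in the fit.

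Against WT, 6 of 9 members were called in e2f, SMR4 to SMR8 higher and SIM lower, where 52.2% of all genes were called (26.4% higher, 25.8% lower). SMR4 differed by 5.54 on the log2 scale (SE 0.35, adjusted p = 4.08e-12) from WT values of 0.252, 0.0450 and 0.0875 CPM, which are 6, 1 and 2 reads. Without WT replicate 1 SMR4 differed by 6.45, a larger value because that library was the highest of WT. SMR6 differed by 2.09 (adjusted p = 1.10e-06), SMR5 by 2.05 (adjusted p = 0.000112) and SMR8 by 1.11 (adjusted p = 7.44e-06). SIM differed by -0.52 (adjusted p = 0.00237). SMR1 was 0.20 higher with a 95% interval of 0.01 to 0.39 and adjusted p = 0.0933, whereas it was lower against btl1.

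**Figure D3:**
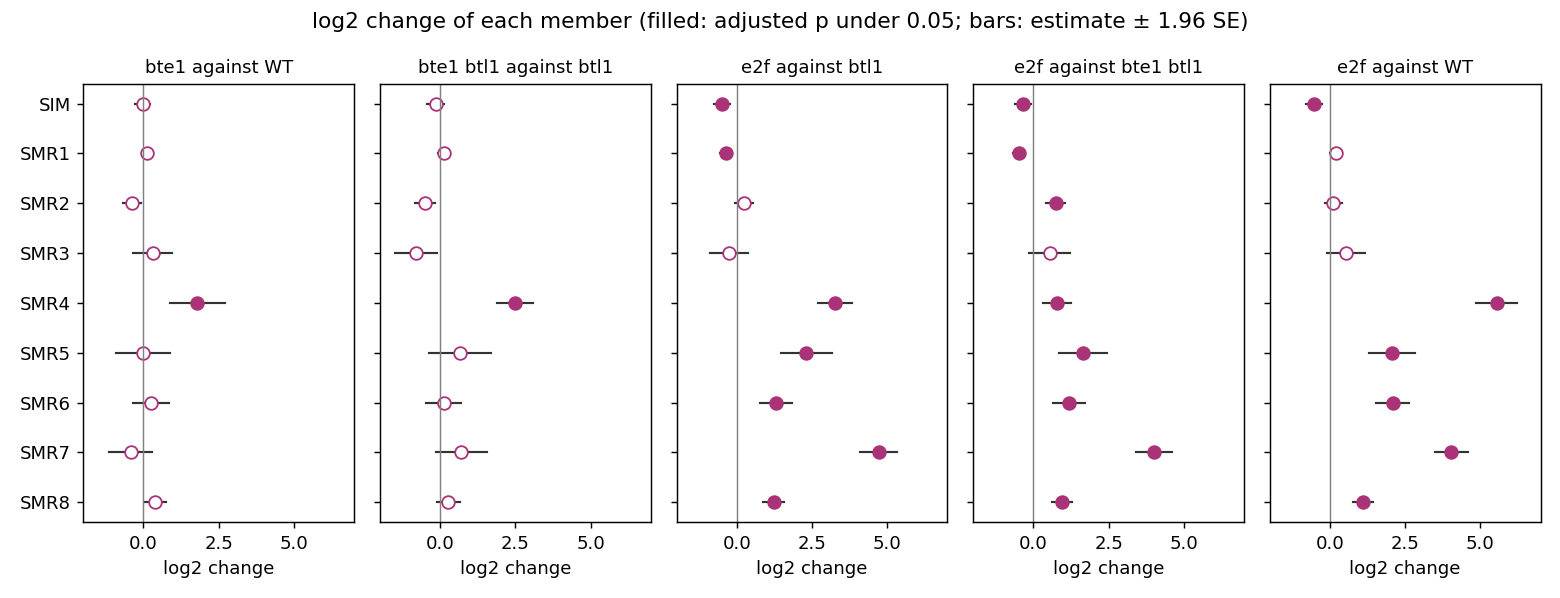
Log2 differences of the 9 genes in 5 comparisons (bte1 against WT, bte1 btl1 against btl1, and e2f against btl1, bte1 btl1 and WT), with points for the estimates (filled where adjusted p was under 0.05) and bars for the 95% intervals. SMR4 is positive in all 5, and the SMR7 estimates of 4.01 to 4.72 stand out in the 3 that involve e2f.

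Other lists were read beside the family in e2f against btl1, and their counts are to be read against the 51.2% of all genes called there (26.4% higher, 24.8% lower). Of 12 DNA damage response genes all 12 were higher, with a median log2 difference of 2.30. They include BRCA1 (3.77, adjusted p = 4.17e-17), GMI1 (3.28, adjusted p = 1.78e-15) and XRI1 (2.32, adjusted p = 2.72e-14). SOG1 itself was at 25.4 CPM against 11.6 CPM in btl1. Of 13 cyclins and kinases that such inhibitors can bind or oppose, 8 were higher, among them the A-type cyclin CYC3B (log2 2.01, adjusted p = 1.83e-11), and 1 was lower, CYCD3;2. Of 15 genes that set the switch to endoreduplication, 9 were higher and 3 (CCS52A2, RHL1 and SAMBA) lower. In e2f against WT 9 were higher and 2 lower. SAMBA was at 4.92 CPM in e2f, 6.71 in btl1 and 3.93 in WT. BIN4, a part of the topoisomerase VI complex needed for endoreduplication, differed by 1.94 (adjusted p = 2.85e-11). FBL17, an F-box protein that targets kinase inhibitors for degradation, differed by 1.22 (adjusted p = 1.47e-10). The KRP proteins, the other family of plant kinase inhibitors, had 3 of 7 higher (KRP6, ICK6 and AT2G32710) and 2 lower (ICK1 and KRP2), against 3 higher and 0 lower in e2f against WT. Of 12 regulators of the epidermis and trichomes 9 were lower and none higher, among them ATML1 (-0.44, adjusted p = 6.13e-05) and HDG11 (-1.12, adjusted p = 6.15e-05). Of 5 further loci listed with the family, AT2G28330 was called, and lower (log2 -1.22, adjusted p = 0.00133), while 3 of the 5 were lower against WT.

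Cell type markers moved with e2f as well. Summed over 4 shoot markers, e2f was at 20820 to 24290 CPM against 31460 to 38550 in btl1, and all 4 were lower. Against WT 3 of the 4 were lower, and RBCS1A was not called (log2 -0.006, adjusted p = 0.973). Of 5 root markers 4 were lower than in btl1 and 1, SCR, was higher, while against WT 1, MYB66, was lower and against bte1 btl1 MYB66 was lower and SCR higher. Over 4 seed markers the sum was 5.76 to 138 CPM in e2f, 0.532 to 88.4 in btl1 and 0.0840 to 0.744 in WT, and edgeR called 0 of 4 against btl1, with 0 at an unadjusted p under 0.05. Against WT it called 3 of the 4 seed markers (CRA1, CRU3 and OLEO1), all higher in e2f, with 4 at an unadjusted p under 0.05. The part of the shoot, root and seed markers in the SIM and SMR differences was not tested. In such whole seedling RNA, fewer cells of a type and less RNA per cell cannot be told apart.

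**Figure D4:**
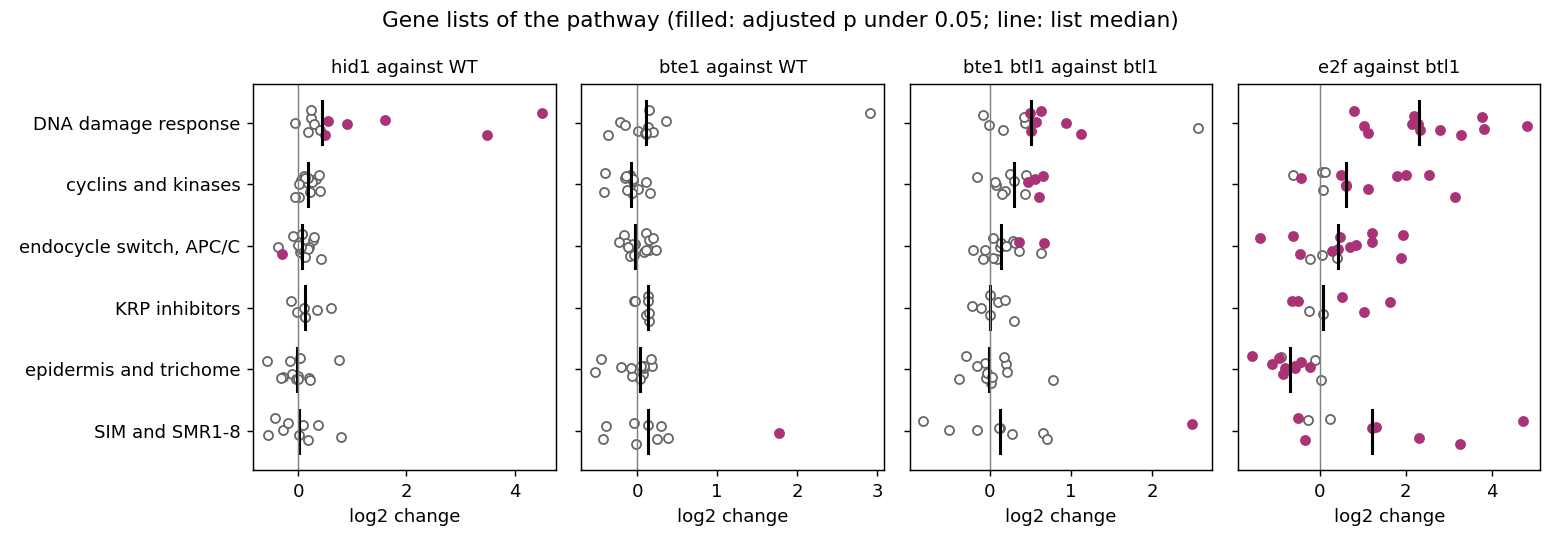
Log2 differences of the genes in each list in 4 comparisons (hid1 and bte1 against WT, bte1 btl1 and e2f against btl1), one point per gene, filled where adjusted p was under 0.05, a line for each list's median and the 9 members in the last row. The 12 DNA damage response genes are all above 0 in e2f against btl1, with a median of 2.30.

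In bte1 btl1 against btl1, which asks what bte1 adds in the btl1 background, SMR4 was the member called, and it was higher. The comparison called 4.49% of all genes (3.37% higher). From the values given above, SMR4 rose 5.61-fold, a log2 difference of 2.49 (SE 0.31, adjusted p = 5.08e-06). SMR2 was at 5.26, 5.31 and 3.49 CPM in bte1 btl1 against 6.90, 6.98 and 5.98 CPM in btl1. These did not overlap, but the log2 difference of -0.50 had adjusted p = 0.0969. SMR3 was at 0.721, 2.27 and 1.12 CPM in bte1 btl1, with a log2 difference of -0.81 and adjusted p = 0.249. Without bte1 btl1 replicate 2, the count was 2 of 9, SMR3 and SMR4. SMR7 had a log2 difference of 0.70 with a 95% interval of -0.14 to 1.55. Beside these, 6 of 12 DNA damage response genes were higher, among them BRCA1 (0.94, adjusted p = 2.12e-05), and 4 of 13 cyclins and kinases (CDKB1;2, CDKB2;1, CDKB2;2 and CYCA2;4), with CDKB2;2 at 0.55 (adjusted p = 0.00263).

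In bte1 against WT, SMR4 was the member called, where 2.52% of all genes were called (1.89% higher). It was at 0.626, 0.325 and 0.432 CPM in bte1 (14, 7 and 10 reads) and at 0.252, 0.0450 and 0.0875 CPM in WT (6, 1 and 2 reads). The groups did not overlap, and the reads were few. Of these libraries only bte1 replicate 1 was above the filter's floor of 0.457 CPM. SMR4 passed the filter through other genotypes, chiefly btl1, bte1 btl1 and e2f, where it was higher. With WT and bte1 alone in the fit it was not tested. The log2 difference was 1.78 (SE 0.47, adjusted p = 0.038), a 3.43-fold difference. The call did not hold without bte1 replicate 1 (adjusted p = 0.207), bte1 replicate 3 (0.0872), WT replicate 2 (0.171) or WT replicate 3 (0.187), nor with DESeq2 (0.0583) or in the larger library set alone (0.13). Without WT replicate 1, the highest WT library, the log2 difference was larger, at 2.69.

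By the same edgeR test, 0 of 12 DNA damage response genes were called in bte1 against WT, with 2 at an unadjusted p under 0.05. SMR8 was at 2.82, 3.25 and 3.20 CPM in bte1 and 2.35, 2.43 and 2.28 CPM in WT, without overlap, with a log2 difference of 0.39 and adjusted p = 0.348. SMR2 was at 5.37, 6.18 and 5.14 CPM in bte1 and 7.47, 7.20 and 7.13 CPM in WT, with a log2 difference of -0.39 and adjusted p = 0.254.

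Whether the bte1 effect on a member differed between backgrounds was tested as non-additivity. With btl1 no member was called, where 0.0685% of all genes were, and 1 had an unadjusted p under 0.05. For SMR4 the bte1 effect was 0.71 larger on the log2 scale in the btl1 background, with a 95% interval of -0.56 to 1.97 and adjusted p = 1. With hid1 no member was called either, where 0.343% of all genes were, and 3 had an unadjusted p under 0.05. These percentages are at the adjusted threshold, and the share of all genes at the unadjusted one was not computed. DESeq2 also called 0 in both tests. SMR6 was among those 3, at -1.20 (95% interval -2.07 to -0.33) with adjusted p = 0.264.

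In hid1 against WT no member was called, where 3.44% of all genes were. SMR2 was the 1 member with an unadjusted p under 0.05, at 5.55, 5.77 and 4.86 CPM in hid1, a log2 difference of -0.43 with adjusted p = 0.136. SMR5 and SMR7 had log2 differences of 0.18 and -0.18, with 95% intervals of -0.70 to 1.07 and -0.87 to 0.51. The other 6 members had log2 differences from -0.55 (SMR3) to 0.80 (SMR4). In the same comparison 6 of 12 DNA damage response genes were higher. NAC044, a target of SOG1, differed by 3.49 on the log2 scale (adjusted p = 6.16e-10). GMI1 was at 28.7 CPM in hid1 and 9.45 CPM in WT (adjusted p = 8.51e-09). SOG1 stood at 11.4 CPM in hid1 and 11.9 CPM in WT. The summed seed markers were at 0.694 to 78.1 CPM in hid1 against 0.0840 to 0.744 in WT, and edgeR called 0 of the 4, with 2 at an unadjusted p under 0.05. DESeq2 called 0 members too.

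The doubles with hid1 gave no member call. In bte1 hid1 against WT it was 0 of 9 where 2.4% of all genes were called, with 2 members at an unadjusted p under 0.05. SMR4 was at 0.528, 0.356 and 0.258 CPM there (12, 8 and 6 reads), with a log2 difference of 1.50 and adjusted p = 0.127. WT replicate 1 also had 6 reads (0.252 CPM), so the groups were apart only through library scaling. Of these libraries only bte1 hid1 replicate 1 was above the filter's floor of 0.457 CPM. Without WT replicate 1 SMR4 was called. Against hid1, bte1 hid1 again had 0 of 9 where 7.43% of genes were called. SMR6 was at 0.704, 0.800 and 0.646 CPM in bte1 hid1 and 1.47, 1.44 and 1.25 CPM in hid1, without overlap. Its log2 difference was -0.95 with adjusted p = 0.0717, the 1 member with an unadjusted p under 0.05. Against bte1 the count was 0 of 9 where 0.224% were called, with 2 at an unadjusted p under 0.05, SMR6 (log2 -0.84, adjusted p = 0.547) and SMR1 (log2 -0.22, adjusted p = 0.643). DESeq2 called 0 in these 3 comparisons.

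In hid1 phil1 against WT no member was called where 0.114% of all genes were, by DESeq2 also 0. At an unadjusted p under 0.05 there were 2, SMR4 (log2 1.34, adjusted p = 0.664) and SMR8 (log2 0.42, adjusted p = 0.682). Against hid1 it was 0 of 9 where 6.45% of genes were, with 4 at an unadjusted p under 0.05 and 1 by DESeq2, SMR3. The 6.45% is at the adjusted threshold, so it is no measure for the count of 4. SMR3 was at 1.50, 2.72 and 1.89 CPM in hid1 phil1 and 1.21, 1.01 and 0.575 CPM in hid1. The groups did not overlap, and the log2 difference was 1.10 with adjusted p = 0.0548. SIM was at 17.4, 22.3 and 14.2 CPM in hid1 phil1 and 13.5, 13.8 and 13.2 CPM in hid1, with a log2 difference of 0.41 and adjusted p = 0.0615. The highest SIM and SMR3 values were both in hid1 phil1 replicate 2, and without that library the count was 0 as well. Without replicate 1 SMR3 was called and without replicate 3 SIM was.

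Against WT, btl1 and bte1 btl1 differ in library set as well as genotype. In btl1 SMR1 and SMR4 were higher, where 17.3% of all genes were called (8.66% higher). SMR1 was at 26.8, 26.1 and 27.7 CPM in WT, a log2 difference of 0.55 (SE 0.10, adjusted p = 0.00046), and SMR4 differed by 2.28 (SE 0.46, adjusted p = 0.00144), or by 3.19 without WT replicate 1. Beside these, 3 of 5 root markers were higher and 1 was lower in btl1. Of 4 shoot markers RBCS1A was higher (log2 0.43, adjusted p = 0.0176) and CAB1 lower (-0.78, adjusted p = 0.00142). The same shoot markers were called in bte1 btl1 against WT, at 0.57 and -0.66, with 0 root markers called. The part of these markers in the member differences was not tested. In bte1 btl1 SMR1, SMR4 and SMR6 were higher and SMR2 lower, where 28.1% of all genes were called (14.8% higher, 13.3% lower). SMR1 was at 46.4, 43.5 and 39.2 CPM, a log2 difference of 0.68 (adjusted p = 1.69e-05). SMR2 differed by -0.64 (adjusted p = 0.00461). SMR4 differed by 4.77 (adjusted p = 7.45e-10), or by 5.67 without WT replicate 1. That replicate was the highest of WT for SMR4, so leaving it out enlarges the SMR4 difference in btl1 and in bte1 btl1. SMR6 differed by 0.91 (adjusted p = 0.0273), which did not hold without bte1 btl1 replicate 1 (0.0898) or 2 (0.121) or WT replicate 2 (0.144, at log2 0.58), nor with the 2 genotypes alone in the fit (0.0753).

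Levels per length were compared within one genotype by the authors' FPKM. In WT SMR1 stood first at 40.1 FPKM (SD 1.31, n = 3), then SIM at 20.2 and SMR2 at 13.0, each apart from the next in all 3 libraries. SMR8, SMR7, SMR3, SMR6 and SMR5 followed at 3.12 to 1.22 FPKM, and neighbours in that run overlapped. SMR4 was last at 0.191 FPKM (SD 0.173), apart from SMR5, and had 9 reads in WT. At such low levels FPKM did not follow the counts. For SMR4, WT replicate 2 had 1 read and 0.104 FPKM, and replicate 3 had 2 reads and 0.0799 FPKM. SMR1 held 47.8% of the family's summed FPKM, SIM 24.1% and SMR2 15.5%. SMR1, SIM and SMR2 also held the first 3 places in hid1, bte1, bte1 hid1, hid1 phil1, btl1 and bte1 btl1.

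In e2f the order differed. SMR1 was first at 39.7 FPKM (SD 5.88, n = 3) and SMR7 second at 32.8 (SD 0.641), apart from it in all libraries. SMR2 at 12.6, SIM at 12.1 and SMR4 at 11.6 FPKM overlapped as neighbours. SMR6, SMR8 and SMR5 lay at 6.25, 6.18 and 5.57 FPKM and overlapped in turn, and SMR3 was last at 2.53. SMR7 held 25.5% of the family's summed FPKM, against 1.33% in btl1. The summed CPM of the 9 genes was 83.9 (SD 4.79) in e2f, 70.0 (SD 1.89) in btl1 and 56.6 (SD 1.86) in WT, n = 3 each, the WT value being from the other library set. In bte1 btl1 SMR4 came next after SMR2, at 6.32 FPKM, overlapping it at 7.16, and in btl1 it was last at 1.19.

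**Figure D5:**
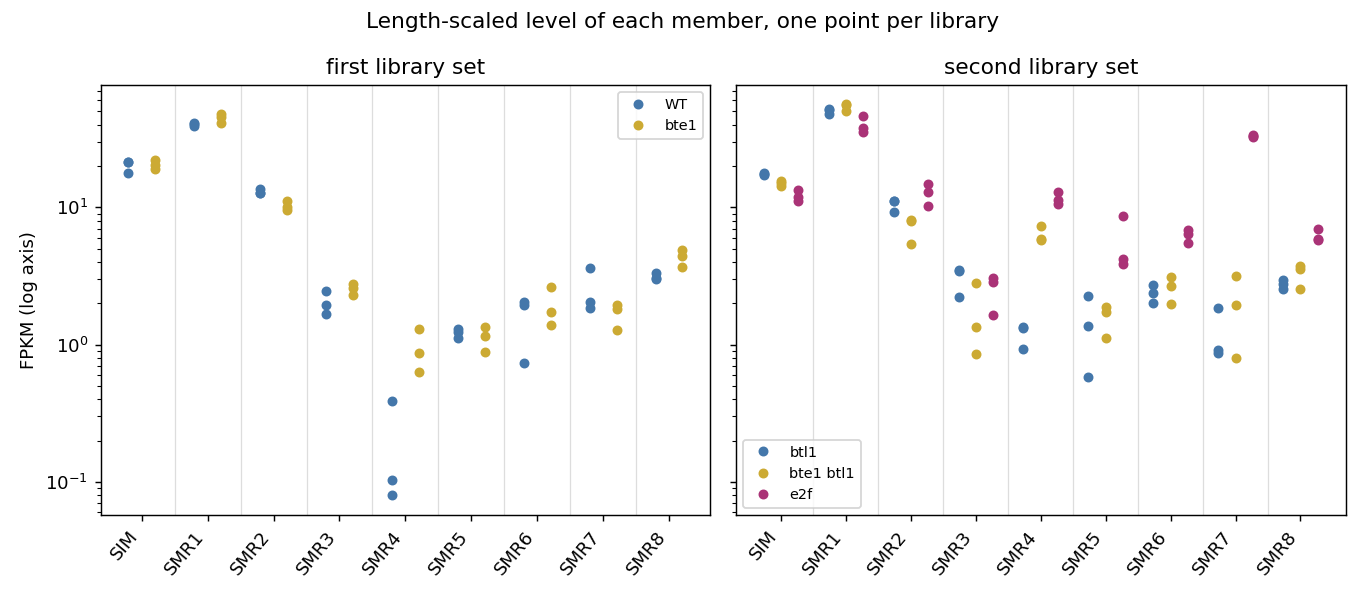
FPKM of the 9 genes in WT and bte1 and, in the other library set, in btl1, bte1 btl1 and e2f, on a log axis, with points for libraries. SMR1 is first in every genotype shown, and SMR7 is second in e2f at 32.8 FPKM.

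The genes most like 5 of the members were found by Pearson correlation of log2 CPM over the larger library set (15 libraries), among 9237 genes with a symbol. The points share genotype and depth, and the values are descriptions. They were picked as the highest of many, and the level reached by unrelated genes was not computed. SMR4 was most like ABCF1 (r = 0.91), PDE247 and FBL17 (0.80). SMR7 was most like MYB85 (r = 0.83, Spearman 0.76), and SMR5 most like ATPC2 (0.82, Spearman 0.77). In these libraries SMR7 had 7 to 27 reads and SMR5 had 6 to 15. SIM was most like SGR4 (r = 0.87) and SMR1 most like FBA1 (0.92).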

How the data were processed

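The authors deposited whole-number counts per gene and, per the file headers, an FPKM table. Per the submitters' processing notes the tools were fastp, HISAT2 2.1.0 (TAIR10) and SAMtools 1.6; the counting program and its strand setting are not given in the sources used here. The 9 members, the lists and the tests were chosen with earlier results of these data known. Counts of all 24 libraries went into 1 edgeR 4.0.16 model (R 4.3.3) with TMM scaling, filterByExpr (minimum count 10) and robust quasi-likelihood F tests. P-values were Benjamini-Hochberg adjusted over 21897 genes (threshold 0.05) in 13 pairwise comparisons and 2 tests of non-additivity. An interval is the estimate plus or minus 1.96 SE, with the SE taken from the F statistic, and it is a little narrow at this sample size. All 9 members were tested in every comparison, and those not named in one are covered by its count. The share of all genes at an unadjusted p under 0.05, or with groups that did not overlap, was not computed. Such counts and separations therefore do not show whether a member, list or marker stands out from other genes. From each list up to 3 called genes with the smallest adjusted p could be named; SOG1, markers, AT1G07510 and members of small counts were named after their values were seen. The labels do not say how replicates were kept separate, so p-values measure the spread between these samples. The fit was also run on simulated counts that gave each gene the same spread in every genotype. Such counts do not cover the larger replicate differences of e2f and hid1 phil1. Promoters came from TAIR10.1 with its own annotation, and no coordinates were moved between builds. Alternatives were RLE factors, no filter, DESeq2 1.42.0, fewer libraries in the fit, a replicate block and leaving out each replicate.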

Additional observations from a re-analysis of the deposited data

How the results depend on the processing

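Of 335 values of called members over the alternatives, 318 kept their call and sign, 17 were not called and 0 changed sign. Of 1343 values of members not called, 13 were called and 59 had the other sign, 0 of those called. In bte1 against WT the count of 1 became 0 with DESeq2, with the 2 genotypes alone (where SMR4 was not tested) and with the libraries of one set, and lay between 0 and 1 when a replicate was left out. In bte1 hid1 against WT it lay between 0 and 1 when a replicate was left out. In bte1 hid1 against hid1 it became 1 (SMR6) with those 2 genotypes alone. In hid1 phil1 against hid1 it became 1 (SMR3) with DESeq2 and with the libraries of one set, and lay between 0 and 1 when a replicate was left out. In bte1 btl1 against btl1 it lay between 1 and 2 when a replicate was left out. The fit on one library set was chosen after seeing the data. The cause of these moves was not tested. A replicate block gave the same member counts in all comparisons, for example 1 in bte1 against WT and 7 in e2f against btl1. Same-numbered libraries had deviations correlated at -0.31 to 0.24 (median 0.01, n = 84). Libraries of different number had -0.31 to 0.42 (median -0.0005, n = 168). These correlations gave no sign of pairing by number, but they cannot tell whether same-numbered samples were grown or prepared together. Depth limits SMR4 and SMR5 most, which passed the filter's floor of 0.457 CPM in 12 and 14 of 24 libraries.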
